A study of Mus musculus with 12 samples.

Results

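Hmox1, Nqo1, Gclc, Gclm, Txnrd1, Srxn1, Fth1, Ftl1, Tfrc and Slc40a1 are 10 mouse genes that deal with oxidants, haem and iron, and they were followed by RNA sequencing in blood stem cells and granulocyte-macrophage precursors that did or did not carry the leukaemia fusion MLL-ENL. They were chosen by symbol, through the Ensembl transcript identifiers of the deposited tables, out of 37574 genes with counts. All 10 passed the filter on low counts that 15706 genes passed. The 12 libraries formed 4 groups of 3. MLL-ENL HSC and WT HSC were haematopoietic stem cells, sorted as Lin-, Sca1+, Kit+, CD48- and CD150+ cells. MLL-ENL preGM and WT preGM were early granulocyte-macrophage precursors, sorted as Lin- and Kit+ cells without Sca1, CD150, CD105, CD41 or CD16/32. MLL-ENL cells came from the strain labelled Col1a1-MLL/ENL and WT cells from C57bl/6 mice. Culture lasted 48 h in every group. The medium was OptiMEM plus 10% FCS, and held 1 µg/ml doxycycline for WT cells too, as well as 10 to 50 ng/ml SCF and 5 ng/ml each of IL3 and G-CSF. Since all MLL-ENL cells had doxycycline, effects of the fusion and of the strain otherwise cannot be told apart. Nothing in the labels says whether replicates came from different mice or dishes; the p-values therefore cover the spread among libraries, possibly only technical.

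Cells answer oxidants through the transcription factor NRF2 (Nfe2l2), which KEAP1 holds back and BACH1 opposes at shared DNA elements. Its classic targets are Hmox1, which breaks haem into biliverdin, carbon monoxide and iron, Nqo1, which reduces quinones, Gclc and Gclm, the catalytic and modifier subunits of the enzyme that limits glutathione synthesis, Txnrd1, which recharges thioredoxin, and Srxn1, which repairs peroxiredoxins. Iron enters most blood precursors through the transferrin receptor Tfrc, is stored in shells of heavy (Fth1) and light (Ftl1) ferritin chains, and leaves through ferroportin (Slc40a1). When iron is scarce, the proteins IRP1 (Aco1) and IRP2 (Ireb2) bind iron-responsive elements, hairpins in the RNA, which blocks translation from elements in a 5′ leader and protects the RNA from decay at elements in the 3′ UTR of Tfrc. RNA levels therefore report only part of that control.

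The elements were looked up in the transcripts of the GENCODE M21 annotation of the mouse genome build GRCm38, because they tie the 4 iron genes to one pair of binding proteins. A loop that begins with CAGTG, closed by a stem of at least 5 base pairs with a C directly before the stem, was found 7 times in 4 of the 10 genes. Whether that C is unpaired was not part of the search. Of 21901 genes with a protein-coding transcript, 222 (1.01%) held such a hairpin. The lines give the strand of the RNA, with the loop in capitals.
Fth1 5′ leader, chr19:9982732-9982761, plus strand: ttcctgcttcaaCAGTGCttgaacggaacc
Ftl1 5′ leader, chr7:45459778-45459807, minus strand: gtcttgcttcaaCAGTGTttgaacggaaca
Slc40a1 5′ leader, chr1:45925464-45925493, minus strand: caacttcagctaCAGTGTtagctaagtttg
Tfrc 3′ UTR, chr16:32631219-32631248, plus strand: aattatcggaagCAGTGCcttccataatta
Tfrc 3′ UTR, chr16:32631598-32631627, plus strand: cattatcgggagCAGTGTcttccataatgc
Tfrc 3′ UTR, chr16:32631663-32631692, plus strand: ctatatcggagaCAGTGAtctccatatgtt
Tfrc 3′ UTR, chr16:32631710-32631739, plus strand: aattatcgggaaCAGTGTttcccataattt
Both ferritin hairpins lie in the leader, as does that of Slc40a1, while the 4 of Tfrc lie within its 3′ UTR. The match is a description of letters, not a test of binding.

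Total gene counts ran from 18.98 to 23.45 megacounts in MLL-ENL HSC, from 14.53 to 18.16 in WT HSC, from 38.47 to 50.33 in MLL-ENL preGM and from 34.74 to 44.49 in WT preGM. All 9 genes of a stem cell list were lower and all 8 of a granulocyte-macrophage precursor list higher in preGM than in HSC, with the fusion and in WT alike. Of 5 genes of markers that one of the sorts selects against, Itga2b (CD41) and Eng (CD105) were lower in preGM in both genotypes. Fcgr3 and Fcgr2b, the genes of CD16 and CD32, were higher in preGM in both, although the preGM sort, which came before the 48 h of culture, selects against CD16/32, and so was Cd48. Fcgr3 averaged 36.0 CPM in MLL-ENL preGM and 208 CPM in WT preGM, with at most 1.85 CPM in any HSC library. MLL-ENL preGM replicate 1 and WT preGM replicate 2 stood apart from their groups, with chi-square per degree of freedom over genes between 441.5 and 553.9 against their own replicates and between 16.99 and 32.33 for every other pair of replicates. These libraries also stood apart in how reads lay along genes. The median share of a gene's counts in its last exon was 37.85% in MLL-ENL preGM replicate 1 and 45.5% and 46.8% in the other replicates. It was 52.5% in WT preGM replicate 2 and 44.0% and 44.3% in the other replicates. In HSC it ran from 48.4% to 52.6% with MLL-ENL and from 52.7% to 56.2% in WT. Summed marker levels differed too. In MLL-ENL preGM replicates 1, 2 and 3 the 9 stem cell genes summed to 127, 55.3 and 60.6 CPM. The 5 genes of markers selected against summed to 546, 886 and 857 CPM, and the 8 precursor genes to 16169, 12717 and 13304 CPM. In WT preGM these sums were 53.8, 67.4 and 54.9 CPM, then 868, 475 and 851 CPM, then 29951, 29436 and 27128 CPM. The part of these differences in the results was not tested. Levels are given as CPM, the count of a gene relative to the TMM-scaled total of its library, and fold changes and adjusted p-values (Benjamini-Hochberg over 15706 genes, threshold 0.05) are from the edgeR quasi-likelihood test. In these bulk samples, fewer cells of a type and less RNA per cell cannot be told apart.

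**Figure D1:**
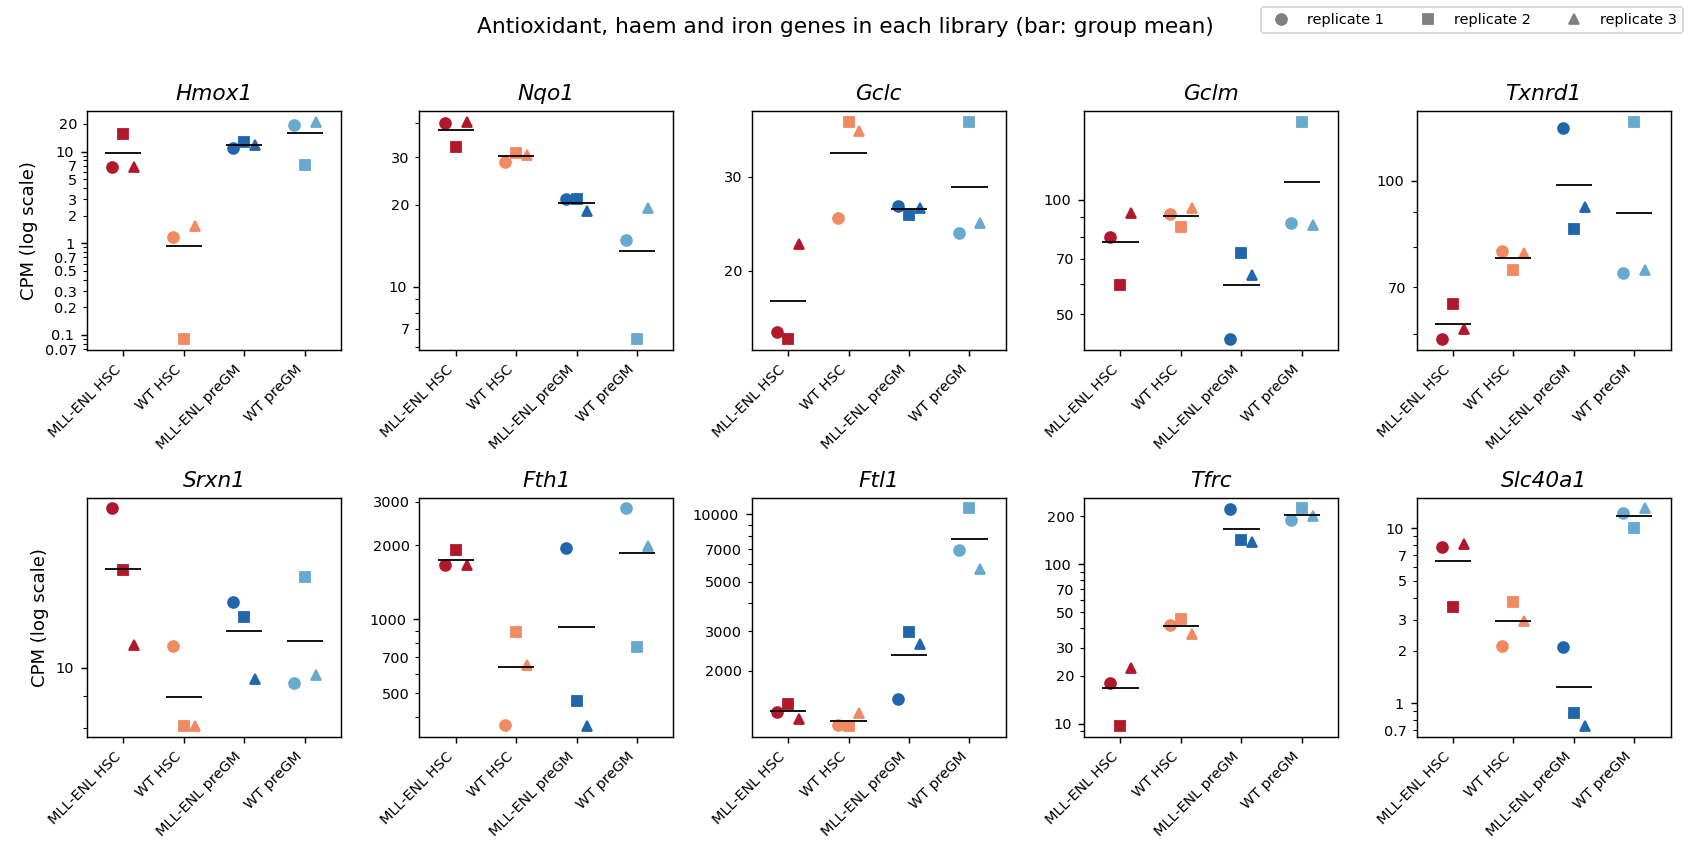
Level of each gene in each of the 12 libraries, in CPM on a log axis with its own range per gene; each point is a library, shaped by replicate number, and the bar is the group mean. Hmox1 is low in the 3 WT HSC libraries only, Slc40a1 is low in MLL-ENL preGM and high in WT preGM, and Fth1 is split within both preGM groups.

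With MLL-ENL, stem cells carried more Hmox1 and less Tfrc RNA than WT stem cells. These were the 2 of 10 genes past the threshold, 1 higher and 1 lower, and 4.13% of all genes tested passed (3.19% higher and 0.936% lower). The median log2 fold change was 0.23 over the 10 genes and 0.02 over all genes tested. The 3 libraries of each group did not overlap in 7 of the 10 genes, against 34.8% of all genes. Without the libraries that stood apart, which are both preGM but share the estimate of spread, 7 of the 10 passed, 4 higher and 3 lower, and over all genes 1621 were higher and 1748 lower, against 501 and 147 with all libraries. With HSC alone in the fit 1275 genes were higher and 1232 lower, so the split of calls depends on which libraries enter the fit.

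Hmox1, the inducible haem oxygenase, had 6.87, 15.6 and 6.75 CPM in MLL-ENL HSC, against 1.17, 0.0906 and 1.54 CPM in WT HSC. All MLL-ENL libraries lay above all WT libraries, and WT HSC replicate 2 was far below its own group with a count of 2. The log2 fold change was 3.42 ± 0.62 (SE, n = 3 each), 10.7-fold higher, with an adjusted p of 0.00494. It passed under all 20 alternative settings. The log2 value was 4.01 without WT HSC replicate 3, and 2.84 without replicate 2, the library with the count of 2.

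Tfrc, which imports transferrin-bound iron, had 18.04, 9.75 and 22.4 CPM in MLL-ENL HSC and 41.6, 45.3 and 36.8 CPM in WT HSC. The groups did not overlap, and MLL-ENL HSC replicate 2 was the lowest library. The log2 fold change was -1.30 ± 0.30 (SE, n = 3 each), with an adjusted p of 0.0213. The call ended with library size alone as the scaling (adjusted p = 0.0902). It also ended without WT HSC replicate 1 (0.0633) or 2 (0.0748) and without MLL-ENL HSC replicate 1 (0.0753) or 2 (0.106).

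The other iron genes did not pass in stem cells. Fth1 had 1658, 1916 and 1653 CPM in MLL-ENL HSC and 371, 891 and 654 CPM in WT HSC, a log2 fold change of 1.45 ± 0.57 (SE, n = 3 each, adjusted p = 0.181). Every MLL-ENL library was above every WT library. With HSC libraries alone in the fit its adjusted p was 0.000871, and without MLL-ENL preGM replicate 1 it was 0.0447. Slc40a1 had 7.85, 3.54 and 8.13 CPM in MLL-ENL HSC and 2.12, 3.80 and 2.95 CPM in WT HSC, and the groups overlapped through MLL-ENL HSC replicate 2 (adjusted p = 0.151, or 0.0289 without both libraries that stood apart). Ftl1, the light chain, had 1314, 1425 and 1220 CPM in MLL-ENL HSC and 1141, 1138 and 1300 CPM in WT HSC, a log2 difference of 0.15 ± 0.33 (SE, n = 3 each, adjusted p = 0.853).

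None of the 5 NRF2 targets other than Hmox1 passed in stem cells, and they did not move one way. Gclc had 15.3, 14.9 and 22.4 CPM in MLL-ENL HSC and 25.1, 38.0 and 36.6 CPM in WT HSC, without overlap, and came nearest (log2 fold change -0.92 ± 0.26, SE, n = 3 each, adjusted p = 0.0573). It passed under 5 of 20 settings, among them DESeq2 (adjusted p = 0.011) and HSC libraries alone (0.0121). Srxn1 had 18.1, 14.4 and 10.9 CPM in MLL-ENL HSC and 10.8, 8.06 and 8.06 CPM in WT HSC (adjusted p = 0.181). Nqo1 had 39.9, 32.6 and 40.5 CPM in MLL-ENL HSC and 28.8, 31.1 and 30.5 CPM in WT HSC (adjusted p = 0.602). For Srxn1 and Nqo1 the lowest MLL-ENL library stood just above the highest WT library. Txnrd1 had 59.0 to 66.3 CPM in MLL-ENL HSC and 74.1 to 79.1 CPM in WT HSC, with an adjusted p of 0.519. Gclm had 59.5 to 92.5 CPM in MLL-ENL HSC and 84.8 to 95.1 CPM in WT HSC (adjusted p = 0.715).

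Some marker lists moved alongside these stem cell values, and their part in the results was not tested. The summed level of 13 erythroid genes was 1974 to 2100 CPM in MLL-ENL HSC and 1458 to 1708 CPM in WT HSC. Among these genes Slc4a1, the red cell anion exchanger, had no count in any library, and most of the sum was Car2. In HSC, Rhag of this list was called higher with MLL-ENL and Hbb-bt lower. The summed level of 9 stem cell genes was 698 to 784 CPM in MLL-ENL HSC and 528 to 591 CPM in WT HSC. That of 5 genes of markers that the sorts select against was 94.2 to 102 CPM in MLL-ENL HSC and 169 to 208 CPM in WT HSC. Of these 5, Cd48, which encodes the CD48 that the stem cell sort selects against, averaged 5.67 ± 1.29 CPM in MLL-ENL HSC and 111 ± 21.2 CPM in WT HSC (SD, n = 3 each) and was called lower. Of 11 markers of iron-recycling macrophages, the summed level was 4.68 to 5.41 CPM in MLL-ENL HSC, with 2 to 7 genes at 0 in a library, and 1.54 to 1.95 CPM in WT HSC, with 6 to 9 genes at 0. C1qa had no count in any HSC library, while Spic, a transcription factor of such macrophages, had 99, 69 and 73 counts in MLL-ENL HSC and 9, 24 and 21 in WT HSC. These counts are not scaled for depth, and Spic was not called. Of the 6 genes of this list that were tested, only Vcam1 was called, higher with MLL-ENL. The summed level of 6 megakaryocyte genes was 194 to 241 CPM in MLL-ENL HSC and 551 to 691 CPM in WT HSC. Of these 6, Pf4 and Ppbp were called lower, Vwf was called higher and 3 were not called. Their median log2 fold change was -0.036.

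In the precursors, MLL-ENL went with less RNA for the iron exporter and for light ferritin. Slc40a1 and Ftl1 were the 2 of 10 genes past the threshold, both lower, where 6.77% of all genes passed (3.7% higher and 3.07% lower). The median log2 fold change was -0.37 over the 10 genes and 0.08 over all genes tested. The groups did not overlap in 3 of the 10 genes, Slc40a1, Ftl1 and Gclm, against 27.8% of all genes.

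Slc40a1, which encodes ferroportin, had 2.09, 0.877 and 0.745 CPM in MLL-ENL preGM, against 12.2, 10.0 and 12.9 CPM in WT preGM. The groups were far apart, and MLL-ENL preGM replicate 1 was the highest of its group. The log2 fold change was -3.22 ± 0.44 (SE, n = 3 each), 9.31-fold lower, with an adjusted p of 0.000292. It passed under all 20 settings and was -3.85 without MLL-ENL preGM replicate 1 and -3.95 without both libraries that stood apart.

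Ftl1 had 1493, 2969 and 2627 CPM in MLL-ENL preGM and 6942, 10628 and 5730 CPM in WT preGM. Every MLL-ENL library lay below every WT library. The log2 fold change was -1.72 ± 0.33 (SE, n = 3 each), 3.29-fold lower, with an adjusted p of 0.00463. It was -1.18 (adjusted p = 4.07e-05) without both libraries that stood apart. The call ended with preGM libraries alone in the fit, at a log2 fold change of -1.69 and an adjusted p of 0.0775. Of the Ftl1 exon bases, 11.3% are shared with Gm22133, and ferritin pseudogenes can take or lend reads; adding the counts of annotated ferritin pseudogenes gave a log2 fold change of -1.72 again.

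Heavy ferritin, Fth1, did not pass with all libraries in the fit. It had 1944, 465 and 370 CPM in MLL-ENL preGM and 2816, 771 and 1982 CPM in WT preGM, with a log2 fold change of -1.003 ± 0.56 (SE, n = 3 each, adjusted p = 0.291). MLL-ENL preGM replicate 1 stood far above its own replicates and inside the WT range, and WT preGM replicate 2 was the low library of its group. Without MLL-ENL preGM replicate 1 the log2 fold change of Fth1 was -2.15 with an adjusted p of 0.0197, and without both libraries that stood apart it was -2.52 with an adjusted p of 0.000125. No test compared the change of Fth1 with that of Ftl1.

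Tfrc had 221, 142 and 137 CPM in MLL-ENL preGM and 190, 224 and 200 CPM in WT preGM (log2 difference -0.30 ± 0.29, SE, n = 3 each, adjusted p = 0.554). The ranges overlapped through MLL-ENL preGM replicate 1. Hmox1 had 10.9, 12.8 and 11.8 CPM in MLL-ENL preGM and 19.4, 7.22 and 21.3 CPM in WT preGM (adjusted p = 0.633), and all MLL-ENL values lay inside the WT range. Gclm had 43.1, 72.4 and 63.2 CPM in MLL-ENL preGM and 87.0, 161 and 85.7 CPM in WT preGM, without overlap (log2 fold change -0.90 ± 0.29, SE, n = 3 each, adjusted p = 0.0754), and passed with DESeq2 alone (0.0234).

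The other antioxidant genes did not pass in the precursors. Nqo1 had 19.0 to 21.1 CPM in MLL-ENL preGM and 6.42 to 19.4 CPM in WT preGM (adjusted p = 0.249), with WT preGM replicate 2 the lowest. Gclc had 25.5 to 26.4 CPM in MLL-ENL preGM and 23.5 to 38.1 CPM in WT preGM (adjusted p = 0.771). Txnrd1 had 85.0 to 119 CPM in MLL-ENL preGM and 73.5 to 122 CPM in WT preGM (adjusted p = 0.764), and Srxn1 had 9.60 to 12.8 CPM in MLL-ENL preGM and 9.44 to 14.1 CPM in WT preGM (adjusted p = 0.921). All 3 overlapped. In each of the 3 the highest value was that of WT preGM replicate 2. The direction of Gclc, Txnrd1 and Srxn1 turned when single libraries were left out.

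Marker lists moved with genotype in preGM as well, and their part in the results was not tested. Of 9 stem cell genes, 5 (Slamf1, Procr, Mecom, Fgd5 and Hoxb5) were called higher with MLL-ENL, 1 (Ly6a) was called lower and 3 were not called. Over all genes 3.7% were higher and 3.07% lower. The median log2 fold change of the 9 was 1.255, against 0.08 over all genes tested. Their summed level was 55.3 to 127 CPM in MLL-ENL preGM, highest in replicate 1, and 53.8 to 67.4 CPM in WT preGM. The summed level of 8 mature neutrophil genes was 31.3 to 53.3 CPM in MLL-ENL preGM and 3621 to 5666 CPM in WT preGM, with 0 to 1 genes at 0 in an MLL-ENL library and all detected in WT. That of 8 granulocyte-macrophage precursor genes was 12717 to 16169 CPM in MLL-ENL preGM and 27128 to 29951 CPM in WT preGM. That of 6 mast cell and basophil genes was 286 to 335 CPM in MLL-ENL preGM and 1447.5 to 2423 CPM in WT preGM, and 3 of them, Cpa3, Mcpt8 and Prss34, were called lower. That of 11 iron-recycling macrophage markers was 11.2 to 22.5 CPM in MLL-ENL preGM and 23.1 to 33.7 CPM in WT preGM. In that list C1qa had 0, 4 and 0 counts in MLL-ENL preGM and 2, 3 and 8 in WT preGM. Of its 6 tested genes only Vcam1 was called, lower with MLL-ENL. The 13 erythroid genes summed to 701 to 1136 CPM in MLL-ENL preGM and 148 to 351 CPM in WT preGM. Of these genes Car2 was called higher with MLL-ENL, while the globin genes Hbb-bs and Hbb-bt were called lower. The median log2 fold change over the 12 tested was -0.14, so the higher sum does not hold for the list as a whole.

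Whether MLL-ENL went with a different change in precursors than in stem cells was tested as an interaction, the log2 fold change in preGM minus that in HSC. The difference passed for Hmox1, Ftl1 and Slc40a1, all negative, which is 3 of 10 genes where 3.13% of all genes passed (1.08% positive and 2.06% negative). It was -3.86 ± 0.80 for Hmox1 (SE, n = 3 per group, adjusted p = 0.0128), where a higher level in stem cells met no call in precursors. It was -4.35 ± 0.60 for Slc40a1 (adjusted p = 0.000726), whose log2 fold change was 1.13 in HSC and -3.22 in preGM. It was -1.86 ± 0.46 for Ftl1 (adjusted p = 0.0372), whose log2 fold change was 0.15 in HSC and -1.72 in preGM. Hmox1 and Slc40a1 passed under all 19 settings. Without WT HSC replicate 3 the Hmox1 difference was -4.46, and without MLL-ENL preGM replicate 1 that of Slc40a1 was -4.98.

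The Ftl1 difference failed in 8 of 12 fits that each left out 1 library, with adjusted p-values between 0.0707 and 0.111. These were the fits without any one of the 6 HSC libraries, without WT preGM replicate 1 or without MLL-ENL preGM replicate 3. Fth1 had a difference of -2.45 ± 0.80 (SE, n = 3 per group, adjusted p = 0.121), and passed with DESeq2 (0.0201) or without MLL-ENL preGM replicate 1 (-3.60, adjusted p = 0.00612). Tfrc had 1.00 ± 0.41 (adjusted p = 0.226) and Gclc 0.78 ± 0.36 (adjusted p = 0.294). Without both libraries that stood apart 6 of the 10 genes passed, 4 negative and 2 positive, the positive ones being Gclc (1.03, adjusted p = 0.0398) and Txnrd1 (0.57, adjusted p = 0.028). The remaining Nqo1, Gclm, Txnrd1 and Srxn1 had differences between -0.67 and 0.45 and adjusted p-values between 0.449 and 0.828.

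**Figure D2:**
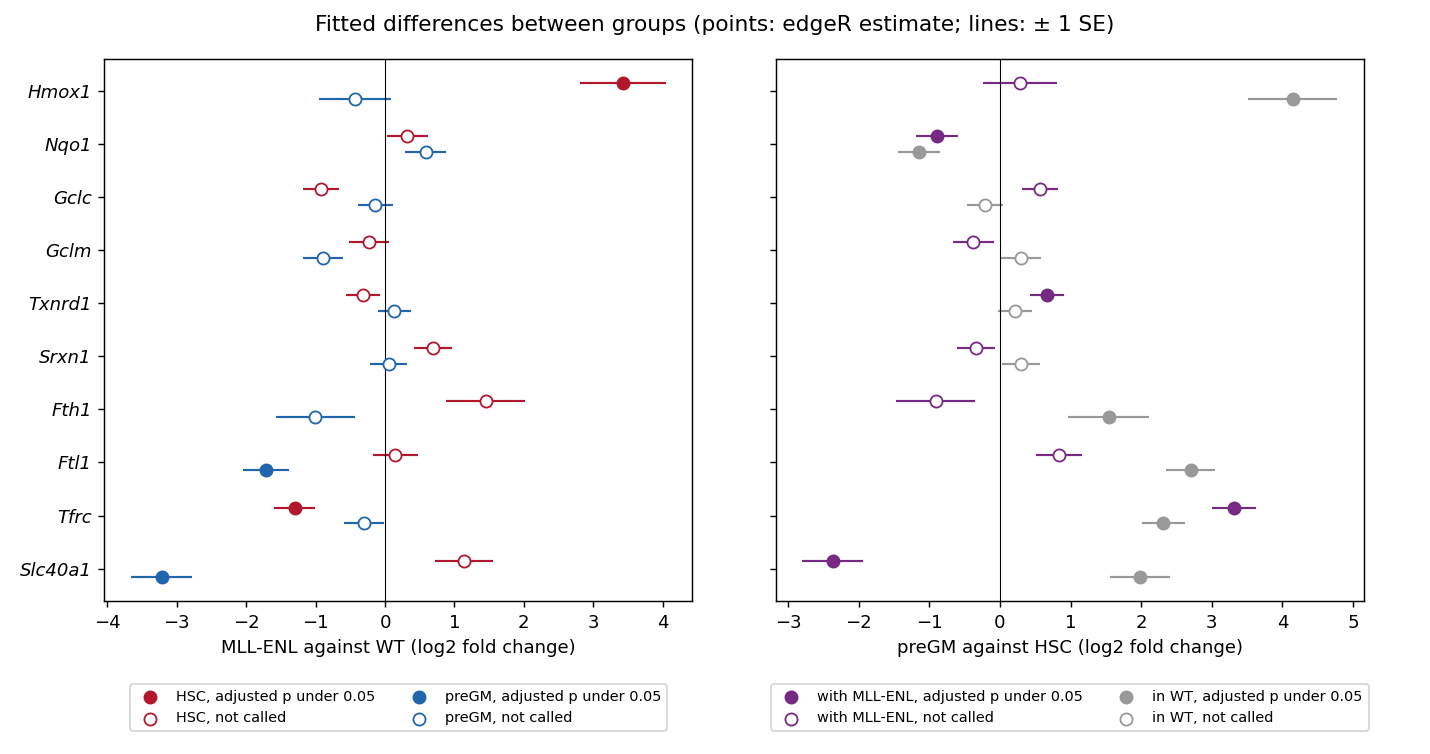
Log2 fold change of each gene from the edgeR fit, with 1 standard error as a line, for MLL-ENL against WT (left) and preGM against HSC (right); filled points have an adjusted p under 0.05. Slc40a1 lies at -3.22 in preGM and 1.13 in HSC on the left, and at -2.37 with MLL-ENL and 1.98 in WT on the right.

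The same libraries also gave the step from stem cell to precursor. Since each group enters a genotype comparison and a cell type comparison, the values share libraries and are given side by side, not as separate support. In WT cells 5 genes were higher in preGM than in HSC, Hmox1, Fth1, Ftl1, Tfrc and Slc40a1, and Nqo1 was lower, where 38.5% of all genes passed (18.4% higher and 20.1% lower). The median log2 fold change was 0.92 over the 10 genes and -0.03 over all genes. Groups did not overlap in 5 of 10 genes, against 48.4% of all genes. With MLL-ENL, Txnrd1 and Tfrc were higher and Nqo1 and Slc40a1 lower in preGM, where 41.5% of all genes passed (20.4% higher and 21.1% lower). There the median was -0.02 over the 10 genes and -0.000116 over all, and 6 of 10 genes did not overlap, against 54.8% of all genes.

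Tfrc was higher in precursors of both genotypes, with a log2 fold change of 3.32 ± 0.32 with MLL-ENL (SE, n = 3 each) and 2.31 ± 0.30 in WT. Slc40a1 passed in opposite directions, at -2.37 ± 0.43 with MLL-ENL (adjusted p = 0.000495) and 1.98 ± 0.42 in WT (adjusted p = 0.00174). Without MLL-ENL preGM replicate 1 the value with MLL-ENL was -2.996. Hmox1 had a log2 fold change of 0.28 ± 0.52 with MLL-ENL (adjusted p = 0.685) and 4.14 ± 0.63 in WT, a 17.7-fold higher level in precursors. The WT value was 4.74 without WT HSC replicate 3. Ftl1 had 0.84 ± 0.33 with MLL-ENL (adjusted p = 0.0501) and 2.70 ± 0.35 in WT, where it was 6.51-fold higher. With MLL-ENL it passed with DESeq2 (adjusted p = 0.00968), without MLL-ENL preGM replicate 1 (0.0042), without WT preGM replicate 2 (0.0165) or 3 (0.048), and without both libraries that stood apart (1.9e-06). Fth1 with MLL-ENL had -0.91 ± 0.56 (SE, n = 3 each, adjusted p = 0.208), and was called lower without MLL-ENL preGM replicate 1, at -2.05 (0.00409). The interaction tests above are also the tests of these differences.

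Nqo1 was lower in precursors of both genotypes, by a log2 fold change of -0.89 ± 0.30 with MLL-ENL (SE, n = 3 each, adjusted p = 0.026) and -1.15 ± 0.30 in WT (adjusted p = 0.00714). With MLL-ENL its call ended without MLL-ENL HSC replicate 1 (0.0766) or 3 (0.0808) and without MLL-ENL preGM replicate 2 (0.0541) or 3 (0.079). Txnrd1 with MLL-ENL (0.67 ± 0.24, adjusted p = 0.0366) failed in 11 of 20 settings, and Fth1 in WT (1.54 ± 0.57, adjusted p = 0.0435) in 11 of 20. Without WT preGM replicate 1, for example, the value of Fth1 was 1.11 (adjusted p = 0.188), and without MLL-ENL preGM replicate 1 that of Txnrd1 was 0.51 (0.0717). Gclc, Gclm and Srxn1 did not pass in either genotype by edgeR with TMM scaling and all libraries. With MLL-ENL, Gclc passed without MLL-ENL HSC replicate 3 (0.049), without WT preGM replicate 2 (0.0417) and without both libraries that stood apart (0.0363), and Gclm (-0.99) and Srxn1 (-0.89) passed with library size alone. In WT, Gclc was called lower with library size alone (-0.94, adjusted p = 0.00881). That scaling, under which the median of all genes in WT was -0.73, gave WT values of 0.89 for Fth1 (no longer called), 1.97 for Ftl1, 3.51 for Hmox1, -1.79 for Nqo1, 1.29 for Slc40a1 and 1.60 for Tfrc.

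Per kilobase of exon, ferritin outweighed the rest in every group. In MLL-ENL HSC, Fth1 averaged 2012 ± 174 and Ftl1 1363 ± 106 CPM per kb, and in WT HSC they averaged 738 ± 301 and 1233 ± 96.0 (SD, n = 3 each). In MLL-ENL preGM, Fth1 averaged 1070 ± 1019 and Ftl1 2441 ± 798 CPM per kb, and in WT preGM 2143 ± 1187 and 8024 ± 2636. The next gene in order was Nqo1 at 24.3 ± 2.83 in MLL-ENL HSC, Txnrd1 at 22.6 ± 0.809 in WT HSC and at 28.9 ± 5.34 in MLL-ENL preGM, and Tfrc at 33.3 ± 2.82 in WT preGM. In MLL-ENL preGM, Txnrd1 and Tfrc (27.1 ± 7.72) differed by less than their SD. At the low end, Slc40a1 averaged 0.366 ± 0.219 CPM per kb in MLL-ENL preGM and 3.47 ± 0.454 in WT preGM, and Hmox1 averaged 4.50 ± 2.34 in MLL-ENL HSC and 0.432 ± 0.348 in WT HSC. In WT preGM, Nqo1 (8.72 ± 4.24), Gclc (8.39 ± 2.38) and Hmox1 (7.39 ± 3.53) differed by less than their SD. Srxn1 (3.94 ± 0.920) and Slc40a1 (3.47 ± 0.454) differed by less than the SD of Srxn1 but by slightly more than that of Slc40a1.

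The balance of heavy to light ferritin RNA was split within preGM groups as well as between genotypes in HSC. Per kilobase, the ratio of Fth1 to Ftl1 was 1.41, 1.503 and 1.51 in MLL-ENL HSC and 0.363, 0.875 and 0.563 in WT HSC. It was 1.46, 0.175 and 0.157 in MLL-ENL preGM and 0.453, 0.0811 and 0.387 in WT preGM. The MLL-ENL stem cell libraries were tight and above all WT libraries, while MLL-ENL preGM replicate 1 had a ratio within the range of the MLL-ENL stem cell libraries, far from its own group. The share of all counts taken by the 2 ferritins was 0.384% to 0.442% in MLL-ENL HSC and 0.177% to 0.247% in WT HSC, and 0.252% to 0.363% in MLL-ENL preGM and 0.610% to 0.734% in WT preGM.

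Where reads fell within Fth1 moved with its level. The last of its 4 exons held 38.8%, 36.0% and 39.4% of Fth1 counts in MLL-ENL HSC and 57.2%, 43.4% and 50.3% in WT HSC. It held 36.0%, 50.5% and 52.4% in MLL-ENL preGM and 37.2%, 56.2% and 37.8% in WT preGM. The 6 libraries with 1653 to 2816 CPM of Fth1 had 36.0% to 39.4% of it in the last exon, and the 6 with 370 to 891 CPM had 43.4% to 57.2%. For Ftl1 the last-exon share was 31.9% to 35.6% in all 12 libraries. The libraries with a low Fth1 share were also those with the lower share over all genes within their cell type and genotype, or, in HSC, the MLL-ENL group. The part of read position in the Fth1 values was not tested.

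**Figure D3:**
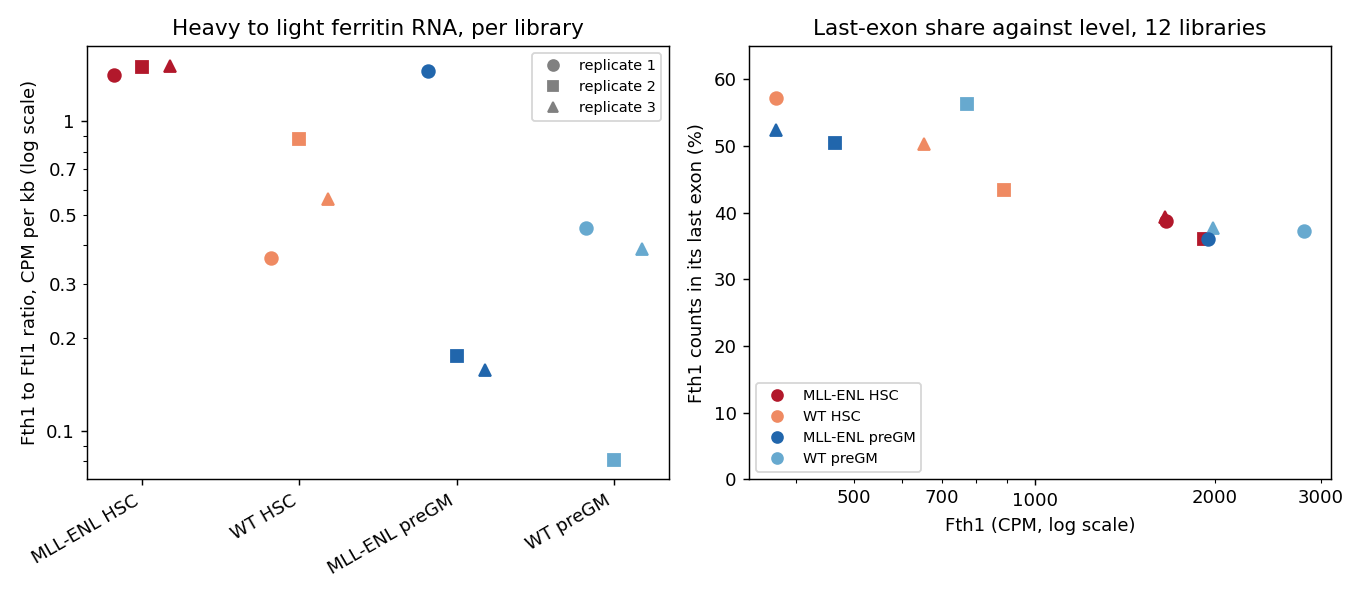
Left, ratio of Fth1 to Ftl1 in CPM per kb on a log axis for each library, with replicates as shapes. Right, percent of Fth1 counts in its last exon against Fth1 level in CPM on a log axis; the 6 libraries from 1653 CPM upwards have 36.0% to 39.4% and the other 6 have 43.4% to 57.2%.

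The named regulators of these genes were not called with genotype. Of 10 genes of the NRF2 system, 0 passed in HSC and 0 in preGM by edgeR, with 1 at an unadjusted p under 0.05 in each comparison. DESeq2 called 0 in HSC and 1 higher in preGM. Nfe2l2, which encodes NRF2, had log2 differences of 0.19 ± 0.25 in HSC and -0.08 ± 0.25 in preGM between MLL-ENL and WT (SE, n = 3 each). Its inhibitor Keap1 had 0.36 ± 0.23 in HSC and 0.0011 ± 0.23 in preGM, and Bach1, which represses Hmox1, had -0.22 ± 0.23 in HSC and -0.40 ± 0.23 in preGM. Of the iron sensors, Ireb2 had -0.28 ± 0.25 in HSC and 0.32 ± 0.25 in preGM, and Aco1 -0.39 ± 0.45 in HSC and 0.65 ± 0.44 in preGM. Aco1 had 48.4, 11.3 and 11.3 CPM in MLL-ENL preGM and 12.9, 20.5 and 11.98 CPM in WT preGM, with MLL-ENL preGM replicate 1 far above the rest, and its value was -0.42 without that library.

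The glutathione and NADPH genes, 22 tested of a list of 23, were the pathway with the most calls in precursors. In preGM 6 were lower with MLL-ENL and 0 higher, where 3.07% of all genes were lower and 3.7% higher, and DESeq2 called 9 lower and 0 higher. The median log2 fold change was -0.66 over the list and 0.08 over all genes. Mgst1 and Mgst2, membrane-bound glutathione transferases, had -2.32 ± 0.31 (adjusted p = 0.00021) and -1.70 ± 0.38 (0.0129), Gstm1, a soluble transferase, -2.00 ± 0.30 (0.000551), and Gpx3, a secreted glutathione peroxidase, -2.11 ± 0.53 (0.0235). Gstm1 had 187, 319 and 339 CPM in MLL-ENL preGM, against 1368, 823 and 1195 CPM in WT preGM, and the groups were well apart. Gsr, glutathione reductase, at -1.35 and Glrx2, a mitochondrial glutaredoxin, at -0.91 complete the count and were named after their values were seen. From HSC to preGM, 14 of the 22 genes were higher and 2 lower in WT, where 18.4% of all genes were higher and 20.1% lower. With MLL-ENL, 10 were higher and 2 lower, where 20.4% and 21.1% of all genes were. Of the 6 genes, all but Glrx2 were among the 14. WT preGM enters both comparisons, and the part of this step in the 6 calls was not tested. The call of Mgst2 ended when MLL-ENL preGM replicate 1 (0.0566) or WT preGM replicate 2 (0.0682) was left out, and its value was -0.97 (adjusted p = 0.0377) without both. It also ended with preGM libraries alone in the fit (0.0595). The call of Gpx3 ended when replicate 1 (0.0887) or 3 (0.0579) of MLL-ENL preGM was left out, or replicate 1 (0.123) or 3 (0.0779) of WT preGM. With library size alone it ended too (0.073).

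In stem cells 2 of these 22 genes were higher with MLL-ENL and 0 lower by edgeR, where 3.19% of all genes were higher and 0.936% lower, with a median of 0.13. DESeq2 called 3 higher and 2 lower. Gpx3 had 5.79, 6.21 and 3.68 CPM in MLL-ENL HSC and 0.0559, 1.18 and 0.615 CPM in WT HSC, without overlap (3.03 ± 0.63, SE, n = 3 each, adjusted p = 0.0121). WT HSC replicate 1 was below the level of 3 counts (0.168 CPM), and without WT HSC replicate 2 the value was 3.99. Chac1, which degrades glutathione, had 0.0316, 1.23 and 0.46 CPM in MLL-ENL HSC and 0, 0 and 0.0615 CPM in WT HSC. Its adjusted p of 0.049 was lost in 14 of 19 settings, among them each fit without a WT HSC library, without MLL-ENL HSC replicate 2 or 3, or without any one preGM library, at adjusted p-values up to 0.208. Its value of 4.67 was 3.47 without MLL-ENL HSC replicate 2, 5.25 without MLL-ENL HSC replicate 1, 4.07 without WT HSC replicate 2 and 7.10 without WT HSC replicate 3. The response to MLL-ENL differed between the cell types for Gpx3, Gstm1, Mgst1 and Mgst2, all more negative in preGM, at -5.14, -2.56, -1.91 and -2.97. For Gpx3 it was -6.10 without WT HSC replicate 2, and for Mgst2 -2.23 without both libraries that stood apart. That of Mgst1 was not called without MLL-ENL HSC replicate 1 (adjusted p = 0.0549).

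Among 17 thioredoxin, peroxiredoxin and superoxide genes, 0 passed in HSC by edgeR, with 1 at an unadjusted p under 0.05, and 0 by DESeq2. In preGM 1 was higher and 1 lower. Prdx5, a peroxiredoxin, had 125, 248 and 233 CPM in MLL-ENL preGM and 645, 1054 and 547 CPM in WT preGM (-1.89 ± 0.32, SE, n = 3 each, adjusted p = 0.00158), and its response differed from that in HSC by -2.20 (adjusted p = 0.0104). Sesn1, a sestrin, had 53.6, 12.9 and 16.8 CPM in MLL-ENL preGM and 6.93, 8.05 and 12.5 CPM in WT preGM. Its value of 1.60 was 0.69 (adjusted p = 0.136) without MLL-ENL preGM replicate 1, and it also failed without WT preGM replicate 1 (0.132) or 2 (0.12). Further settings in which it failed were a replicate block (0.0633), preGM libraries alone (0.125) and both libraries that stood apart left out (0.167).

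Haem synthesis had 14 genes tested. Of these 0 passed in HSC by edgeR, with 2 at an unadjusted p under 0.05 and 1 higher by DESeq2, and 1 was lower in preGM. Alas1, the housekeeping first enzyme of the pathway, had 286, 164 and 197 CPM in MLL-ENL preGM and 595, 290 and 722 CPM in WT preGM (-1.31 ± 0.34, SE, n = 3 each, adjusted p = 0.0277). The highest MLL-ENL library stood just below the lowest WT library. The call ended when replicate 2 (0.0731) or 3 (0.0792) of MLL-ENL preGM was left out, or replicate 1 (0.098) or 3 (0.103) of WT preGM. It also ended with library size alone (0.129) and with preGM libraries alone in the fit (0.153).

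Of 11 genes of haem breakdown and transport 10 were tested. In HSC with MLL-ENL, Slc48a1, a haem importer of the endosome and lysosome, was higher (1.05 ± 0.25, adjusted p = 0.0286) and Flvcr1, a haem exporter, was lower (-1.52 ± 0.31, adjusted p = 0.0116). Slc48a1 had 162, 156 and 135 CPM in MLL-ENL HSC and 61.8, 73.0 and 84.1 CPM in WT HSC, and Flvcr1 had 3.42, 4.86 and 4.17 CPM in MLL-ENL HSC and 17.7, 7.02 and 11.1 CPM in WT HSC. Neither overlapped. The Slc48a1 call ended without any one of the 6 HSC libraries (adjusted p between 0.0518 and 0.126), and the Flvcr1 call without replicate 1 of WT HSC (-1.12, 0.0611), or without replicate 1 (0.0664) or 3 (0.052) of MLL-ENL HSC. With a replicate block in the fit the Slc48a1 call ended too (0.0525). In preGM with MLL-ENL, Abcg2, an exporter of porphyrins, was higher (1.31 ± 0.29, adjusted p = 0.0119) and Hp, haptoglobin, was lower (-1.76 ± 0.47, adjusted p = 0.033). The Abcg2 call ended without WT preGM replicate 1 (0.0635) and with preGM libraries alone in the fit (0.0772). The Hp call ended with library size alone (0.0714). It also ended when replicate 1 (0.124) or 3 (0.0609) of MLL-ENL preGM, or replicate 1 (0.122) or 3 (0.0742) of WT preGM, was left out.

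The other iron genes, 21 tested of 24, had 0 calls in HSC by edgeR, with 7 at an unadjusted p under 0.05 and 2 higher by DESeq2. In preGM 2 were higher and 2 lower. Ltf (lactoferrin) and Lcn2 (lipocalin 2), iron-binding proteins of neutrophil granules that also stand in the neutrophil marker list, had -7.83 ± 0.58 (adjusted p = 5.58e-07) and -3.88 ± 0.41 (adjusted p = 2.32e-05). Ltf had 0.169, 0.162 and 0.11 CPM in MLL-ENL preGM and 30.6, 16.7 and 57.5 CPM in WT preGM. Tfr2, a transferrin receptor that senses iron, was higher with MLL-ENL, at 49.5, 16.1 and 16.3 CPM in MLL-ENL preGM and 4.96, 4.38 and 5.46 CPM in WT preGM (2.47 ± 0.36, adjusted p = 0.000528). Its highest value was that of MLL-ENL preGM replicate 1, without which the log2 fold change of Tfr2 was 1.71, and 1.63 without both libraries that stood apart. Steap3, the endosomal iron reductase, had 60.9, 17.4 and 21.1 CPM in MLL-ENL preGM and 11.1, 8.19 and 15.3 CPM in WT preGM. Its value of 1.52 was 0.74 (adjusted p = 0.171) without MLL-ENL preGM replicate 1, and it also failed without WT preGM replicate 1 (0.11) or 2 (0.133). Further settings in which it failed were a replicate block (0.0545), preGM libraries alone (0.12) and both libraries that stood apart left out (0.284). The response differed between cell types for Ltf (-9.63), Lcn2 (-4.54) and Hfe (-1.73), the last of these, a partner of transferrin receptors, in 8 of 19 settings only. That of Ltf was -10.3 without WT HSC replicate 2, and that of Hfe -2.77 with the longest transcript.

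**Figure D4:**
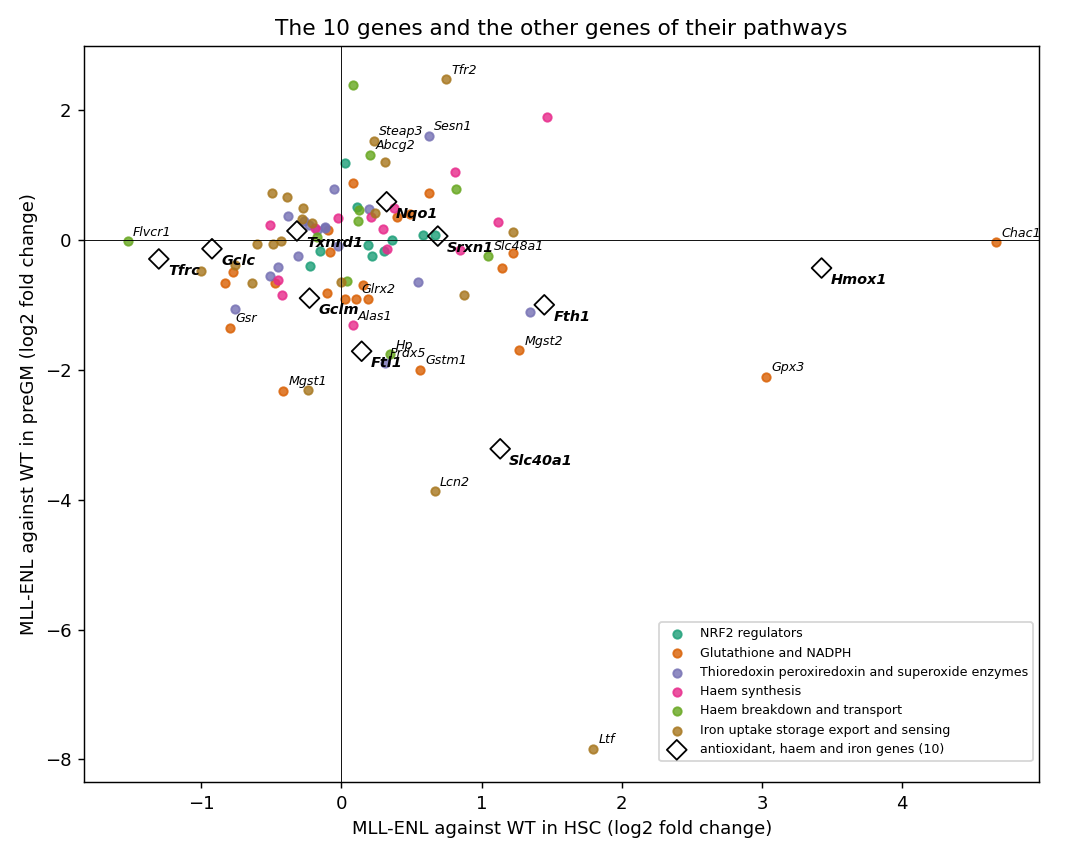
Log2 fold change with MLL-ENL in preGM (vertical) against that in HSC (horizontal) for the 10 genes (diamonds, bold names) and the other tested genes of 6 pathway lists (points, named where either comparison passed an adjusted p of 0.05). Both axes come from the same edgeR fit; Slc40a1 at 1.13 and -3.22, Hmox1 at 3.42 and -0.44, Ltf at 1.79 and -7.83 and Chac1 at 4.67 and -0.04 are among those away from the centre.

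Promoters of the 10 genes were searched for the core of the antioxidant response element, the site of NRF2 and BACH1. RefSeq windows of build GRCm38.p6, from 250 bases before to 50 bases after a start, matched 7 of the 10 genes with 11 windows. TGACNNNGC or TGAGNNNGC, searched on both strands, stood in 3 of these windows, 1 each for Srxn1, Gclm and Txnrd1, and in 27.8% of all 32851 windows. Srxn1 held 3 matches in 1 window. One of them is shown because it is on the strand of the gene; its core begins 45 bases before the start, and the printed stretch is chr2:152105469-152105497, plus strand, with the core in capitals.
Srxn1 promoter: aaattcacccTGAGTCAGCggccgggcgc
None of the 3 genes passed in either genotype comparison by edgeR with all libraries. Hmox1, Gclc and Slc40a1 had no window, and elements outside the windows could not be found. The search describes letters and does not test binding, so no conclusion on NRF2 is drawn from it.

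For the 3 genes with the smallest adjusted p in a genotype comparison, the most alike genes by Pearson correlation of log2 CPM over the 12 libraries are a description only, since the libraries share groups and scaling. For Slc40a1 they were Spata13 (r = 0.92), Ltf (0.907) and Kdm7a (0.904). For Ftl1 they were Cyba (0.998), Gm22133 (0.997), which lies inside an Ftl1 exon, and Crxos (0.993). For Hmox1 they were Armc6 (0.966), Gpc1 (0.942) and Gm9920 (0.927). Among the 10 genes themselves, Ftl1 and Nqo1 ran opposite (r = -0.891), and Fth1 and Ftl1 had r = 0.138. For deviations from the group means, r was -0.669 for Ftl1 and Nqo1 and -0.804 for Fth1 and Ftl1. MLL-ENL preGM replicate 1 had the highest Fth1 and lowest Ftl1 of its group, and WT preGM replicate 2 the reverse.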

How the data were processed

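Per the file headers, each deposited table has a tag count and an RPKM for every exon, intron and transcript. The counts are the authors' whole numbers, without normalization; the deposited RPKM served only to check library sizes. The submitters' processing notes list HTSeq, edgeR, Bowtie2 2.1.0 and TopHat2 2.0.8 but no roles. The genome build the authors used was not given in these sources. Per the labels' protocols, RNeasy micro columns and the SMARTer kit for low input were used.

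Of 93615 transcripts, 89664 (95.8%) matched GENCODE M21 by identifier and 2890 were assigned by exon overlap. The 1061 left out held 1.23% to 3.20% of counts. For each gene the counts of the non-overlapping exon set with the most bases were summed, giving 37574 genes. Reads were counted without strand, so overlapping genes cannot be told apart.

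edgeR 4.0.16 in R 4.3.3 fitted group means over all 12 libraries (TMM, filterByExpr with a minimum count of 10, robust quasi-likelihood, common biological coefficient of variation 0.321), and 5 comparisons were tested two-sided. Standard errors were back-calculated from the F statistic. Alternatives were DESeq2 1.42.0, library size alone, no filter, a replicate block, the longest transcript, ferritin pseudogenes added, single libraries left out, both libraries that stood apart left out, and only the groups compared. The fit was tried on simulated data for MLL-ENL against WT in HSC only, with the same spread for every gene and no library that stood apart. That trial cannot show how the fit handles such libraries. The last-exon share is a median over 6004 genes with at least 200 counts in every library and at least 3 exons. Errors are standard errors from libraries; reads carry no molecular identifiers, and 3 counts equal 0.107, 0.163, 0.0789 and 0.105 CPM in MLL-ENL HSC, WT HSC, MLL-ENL preGM and WT preGM.

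The 10 genes and the lists were chosen with earlier results of these data known. Beyond the 10, text names 5 regulators, up to 4 genes per list and comparison with an adjusted p under 0.05 and the largest change, and the 3 most correlated genes of 3 called genes.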

Additional observations from a re-analysis of the deposited data

Results flagged for a closer look

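The change with MLL-ENL differed between preGM and HSC, by the interaction test of the edgeR fit (log2 fold change in preGM minus that in HSC), in 3 of the 10 genes: Slc40a1 (-4.35), Hmox1 (-3.86) and Ftl1 (-1.86). It also differed in Gpx3 (-5.14), Mgst2 (-2.97), Gstm1 (-2.56) and Mgst1 (-1.91) of the glutathione list, in Prdx5 (-2.20) of the peroxiredoxin list, and in Ltf (-9.63), Lcn2 (-4.54) and Hfe (-1.73) of the iron list. All 11 were more negative in preGM, where 2.06% of all genes tested passed with a negative and 1.08% with a positive difference. That balance turned without both libraries that stood apart, where 1065 genes had a positive and 862 a negative difference, and of the 10 genes 2 (Gclc and Txnrd1) were positive and 4 negative. Gpx3 was -6.10 and Ltf -10.3 without WT HSC replicate 2. Ltf and Lcn2 are themselves neutrophil granule genes, and the summed level of 8 neutrophil genes was 31.3 to 53.3 CPM in MLL-ENL preGM and 3621 to 5666 CPM in WT preGM; the part of these markers in the other differences was not tested.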

How the results depend on the processing

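Of the recomputed values of the 10 genes, 900 kept direction and side of the threshold, 32 passed only in the alternative, 40 failed only there and 18 changed sign. Genes called with MLL-ENL against WT in HSC numbered 648, against 1339 with DESeq2, 3369 without both libraries that stood apart (1621 higher, 1748 lower), 2507 with HSC alone (1275 higher, 1232 lower), and 312 to 1283 with single libraries left out. Of the 10 genes 2 were called there, against 1 with library size alone, 7 without both, 4 with HSC alone and 1 to 4 with single libraries left out. In preGM 1063 genes were called, against 1741 with DESeq2 and 566 to 1345 with single libraries left out, and 2 of the 10 genes, against 1 with preGM alone. The response difference passed for 492 genes, against 1058 with DESeq2, 1927 without both (1065 positive, 862 negative, against 169 and 323) and 299 to 694 with single libraries left out, and for 3 of the 10 genes, against 6 without both. For preGM against HSC with MLL-ENL, 4 of the 10 genes were called, against 7 without both and 2 to 6 with single libraries left out. Over all genes 6520 (41.5%) were called there, against 8154 without both and 5038 to 7217 with single libraries left out. The cause was not tested.

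With library size alone the median over all genes was 0.21 in HSC and 0.41 in preGM for MLL-ENL against WT, and -0.73 in WT and -0.56 with MLL-ENL for preGM against HSC. Calls split 581 higher and 80 lower in HSC (501 and 147 as reported), 884 and 296 in preGM (581 and 482), 1190 and 6149 for preGM against HSC in WT (2889 and 3153), and 1218 and 5515 with MLL-ENL (3199 and 3321).

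Every sign change concerned a value that was not called. For MLL-ENL against WT in preGM with library size alone, Gclc was 0.21, Nfe2l2 0.26 and Tfrc 0.072; without both libraries that stood apart, Aco1 was -0.14, Gclc 0.10 and Keap1 -0.088. Keap1 was -0.036 with DESeq2, -0.022 with the replicate block and -0.0033 with the longest transcript. With single libraries left out, Aco1 ranged from -0.42 to 0.98, Gclc from -0.27 to 0.11, Ireb2 from -0.044 to 0.52, Keap1 from -0.21 to 0.15, Nfe2l2 from -0.26 to 0.096, Srxn1 from -0.049 to 0.26 and Txnrd1 from -0.024 to 0.41. For preGM against HSC in WT with library size alone, Gclm was -0.45, Srxn1 -0.43 and Txnrd1 -0.52; without both, Gclm was -0.060 and Txnrd1 -0.058; with single libraries left out, Gclm ranged from -0.060 to 0.46 and Txnrd1 from -0.059 to 0.35. With MLL-ENL, Hmox1 was -0.29 with library size alone. The Nqo1 response difference was -0.095 without both and -0.073 to 0.61 with single libraries left out.

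No pairing by replicate number was seen. Deviations of same-numbered libraries from their group means correlated at -0.104 to 0.1, and those of libraries with different numbers at -0.135 to 0.137. With 3 libraries per group these values cannot exclude pairing. With the replicate block 502 genes were called in HSC, 864 in preGM, 403 for the response difference, 5533 for preGM against HSC in WT and 6022 with MLL-ENL, and 2, 2, 3, 5 and 3 of the 10 genes.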
